A study of Mus musculus with 16 samples.

Results

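The mitochondrial respiratory chain genes described here are the nuclear genes whose symbols begin with Nduf, Sdh followed by a to d, Uqcr, Cox followed by 4 to 8, or Atp5, leaving out control probe sets. The rule found 97 genes among 19505 tested, each with 1 probe set and each annotated as protein-coding. They were grouped by symbol alone, so Ndufa4 and Ndufa4l2 count under complex I and Cox7a2l under complex IV. The groups held 38 genes of complex I, 4 of complex II, 8 of complex III, 18 of complex IV and 17 of complex V. The other 12 were assembly factors of complexes I and II.

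The study sorted olfactory mucosa cells of S100a5-tauGFP mice, in which an activity-linked calcium-binding protein gene drives a green reporter, into GFP- and GFP+ gates and profiled them on Clariom S microarrays. C57BL/6 mice of both sexes, 7 to 12 weeks old, were kept singly in a stream of clean air for 40 hours. From hour 26 they received 10 second pulses every 20 minutes, either of bourgeonal, a floral aldehyde odorant, or of filtered air as the vehicle. Libraries were titled odor GFP-, vehicle GFP-, odor GFP+ and vehicle GFP+, with 4 of each, and every library came from 3 pooled mice. The 24 mice made 8 pools, each with a library of either gate.

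The title and the cell type field named opposite gates for all 16 libraries, so the gates are called titled GFP- and titled GFP+, and every gate ratio is the log2 value in titled GFP- minus that in titled GFP+ of the same pool. S100a5 was higher in titled GFP- in 8 of 8 pools, by 1.02 ± 0.25 on the log2 scale (SD, n = 8 pools; exact sign-flip test over pools, two-sided p = 0.00781, which is the lowest value possible with 8 pools), which goes with the cell type field. Omp, which marks mature olfactory neurons, averaged 18.86 in titled GFP- and 18.82 in titled GFP+, a ratio of 0.04 ± 0.10 (SD, n = 8 pools, exact sign-flip test, p = 0.352). Of 7 markers of mature olfactory neurons, 2 were higher in titled GFP- (limma) and 6 had a positive ratio, with a median of 0.04. The 2 were Ano2, a chloride channel of the cilia, which averaged 17.55 in titled GFP- and 17.08 in titled GFP+ (adjusted p = 0.00191), and Adcy3, the adenylyl cyclase of odor transduction, which averaged 17.60 in titled GFP- and 17.29 in titled GFP+ (adjusted p = 0.0197). Another of the 7, Stoml3, averaged 19.52 in titled GFP- and 19.53 in titled GFP+, at the top of the arrays (19.38 to 19.59). Omp lay close to that top. Whether ratios at such levels were compressed was not tested. Of 8 neutrophil and myeloid markers all 8 passed the test in the lower direction, with a mean level of 4.08 to 5.45 in titled GFP- libraries and 12.71 to 13.99 in titled GFP+ libraries. Markers of immature neurons (5 of 5), microvillar cells (5 of 5), progenitors (3 of 3) and sustentacular cells (4 of 5) were lower in titled GFP- as well. The part of these other cells in the values below was not tested. In sorted pools, fewer cells of a type and less RNA per cell cannot be told apart.

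The respiratory chain sits in the inner mitochondrial membrane. Complex I and complex II feed electrons from NADH and succinate into ubiquinone, complex III passes them to cytochrome c, complex IV hands them to oxygen, and complex V uses the resulting proton gradient to make ATP. Most subunits are encoded in the nucleus, a smaller core in the mitochondrial genome, and several complex IV subunits have tissue-specific isoforms. In many cell types the nuclear genes are regulated together by NRF1, by Ets-family factors of the GABP type and by PGC-1 coactivators. Olfactory sensory neurons spend ATP on ion pumping and on signalling in their cilia.

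Promoters were searched for motifs of NRF1 and of Ets-family factors. RefSeq promoter windows of 300 bases, mostly upstream of the start (GRCm38.p6), were matched for 81 of the 97 genes, and a gene with several windows counted when any held the motif. The NRF1 motif, searched on both strands as GCGC, then any base, then TGCGC, lay in the windows of 21 of these 81 genes (25.9%), against 1402 of 27025 genes with a window (5.19%). The Ets motif CCGGAAG, on both strands, lay in 22 of 81 (27.2%), against 2683 of 27025 (9.93%). By complex, the NRF1 motif was found for 7 of 34 complex I genes, 2 of 3 complex II, 1 of 5 complex III, 1 of 13 complex IV, 6 of 15 complex V and 4 of 11 assembly factor genes. Both motifs were found for 5 genes, with 0 overlapping matches, and neither for 43. Of 11 members with a window that were called in the gate ratio over all pools, 2 held the NRF1 motif and 2 the Ets motif. Ndufv3 and Ndufaf7, whose calls held in every alternative run, held neither. A match describes the letters only, and any link to the expression values was not tested. The windows of 4 genes named in the results are printed as examples. They run 5′ to 3′ on the gene's own strand, with motif letters in capitals. Ndufs5 (chr4:123718137-123718436, minus strand), a complex I gene higher in titled GFP-, held 1 NRF1 match. Sdhd (chr9:50603800-50604099, minus strand), a complex II gene, held 1 match of each motif. The complex IV isoform pair Cox7a1 (chr7:30183921-30184220, plus strand) and Cox7a2 (chr9:79759804-79760103, minus strand) held neither.
Ndufs5: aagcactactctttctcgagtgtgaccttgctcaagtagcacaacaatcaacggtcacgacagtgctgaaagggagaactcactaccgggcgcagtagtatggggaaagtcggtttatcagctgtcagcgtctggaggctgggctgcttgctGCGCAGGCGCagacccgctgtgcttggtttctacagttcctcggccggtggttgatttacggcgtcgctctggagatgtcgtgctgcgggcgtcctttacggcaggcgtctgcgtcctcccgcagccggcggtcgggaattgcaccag
Sdhd: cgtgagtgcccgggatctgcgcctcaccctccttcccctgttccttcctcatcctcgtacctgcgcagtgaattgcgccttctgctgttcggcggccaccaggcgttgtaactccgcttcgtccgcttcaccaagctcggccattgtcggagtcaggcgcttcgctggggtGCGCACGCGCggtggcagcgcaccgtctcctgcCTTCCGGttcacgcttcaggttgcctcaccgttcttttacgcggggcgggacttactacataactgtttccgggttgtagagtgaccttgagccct
Cox7a1: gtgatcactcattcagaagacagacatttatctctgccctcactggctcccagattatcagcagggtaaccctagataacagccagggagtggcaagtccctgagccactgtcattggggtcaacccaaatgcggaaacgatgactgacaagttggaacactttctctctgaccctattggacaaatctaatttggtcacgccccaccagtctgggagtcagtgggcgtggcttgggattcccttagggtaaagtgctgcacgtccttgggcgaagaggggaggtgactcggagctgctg
Cox7a2: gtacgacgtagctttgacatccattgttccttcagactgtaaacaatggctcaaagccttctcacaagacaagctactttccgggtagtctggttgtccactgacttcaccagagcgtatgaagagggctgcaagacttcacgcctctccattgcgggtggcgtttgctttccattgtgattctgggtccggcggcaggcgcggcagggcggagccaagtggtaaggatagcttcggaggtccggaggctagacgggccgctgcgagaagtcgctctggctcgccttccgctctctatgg

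Nearly all of the chain was measured well above background. A guide to background, the 95th percentile of 321 vomeronasal receptor genes in the same library, lay at 4.69 to 4.97 in titled GFP- and at 4.29 to 4.64 in titled GFP+. Of the 97 genes, 86 lay above it in all 16 libraries. The genes above it in no library were Cox4i2, Cox6b2, Cox8b, Ndufa4l2 and Sdhaf4, which are named because they are few. A further 6 passed in some libraries: Cox7b2 in 2, Cox6a2 in 5, Atp5k in 7, Cox8c in 13, and Ndufa7 and Uqcr11 in 15 each. Most of these dim genes are tissue isoforms. The highest value of any member, 17.34, was below the top of each array (19.38 to 19.59). Ratios of dim genes are compressed or set by background.

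The gate ratio over all 8 pools asked whether the chain's RNA differs between the sorted gates. The chain was near level. Of the 97 genes, 12 were higher and 1 was lower in titled GFP- (limma, adjusted p under 0.05 over all genes), while 14.4% of all genes tested were higher and 13.2% lower, so the share of members higher was close to the background and the share lower was below it. The median ratio was 0.12, with the middle of the distribution between 0.03 and 0.22, beside a median of 0.10 and a range of -0.08 to 0.26 for the same quartiles of all genes. The ratio was positive for 78 of 97 members and for 66.4% of all genes. The 95% interval lay within 0.5 of 0 for 72 members and within 1 for 96, so differences beyond those sizes were outside the interval for most of the chain. Centring each library on its median added about the same amount to every gene. The medians became 0.48 for the members and 0.46 for all genes. Of the 97 members 90 were then higher and 1 lower, and of 19505 genes 14336 were higher and 1792 lower. Ratios are therefore best read against the all-gene median. That median includes dim genes, and with dim probe sets left out it was 0.08, while the member median was 0.12. The member median also depended on single pools. It was 0.19 without vehicle pool 1, 0.07 without odor pool 4 and 0.07 without vehicle pool 3, where 67 members were positive, while the all-gene median stayed at 0.10 to 0.11. So did the count of 12. It was 4 without odor pool 1, and 6 without vehicle pool 2 or vehicle pool 4. It was 7 without odor pool 3, odor pool 4 or vehicle pool 3. Of 19505 genes, 2810 were higher in the main run and 2345 without odor pool 1. Without vehicle pool 2 or 4 the gene counts were 2124 and 2309. Without odor pool 3, odor pool 4 or vehicle pool 3 they were 2093, 2387 and 2289. The count of members fell by a larger share in these runs.

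**Figure D1:**
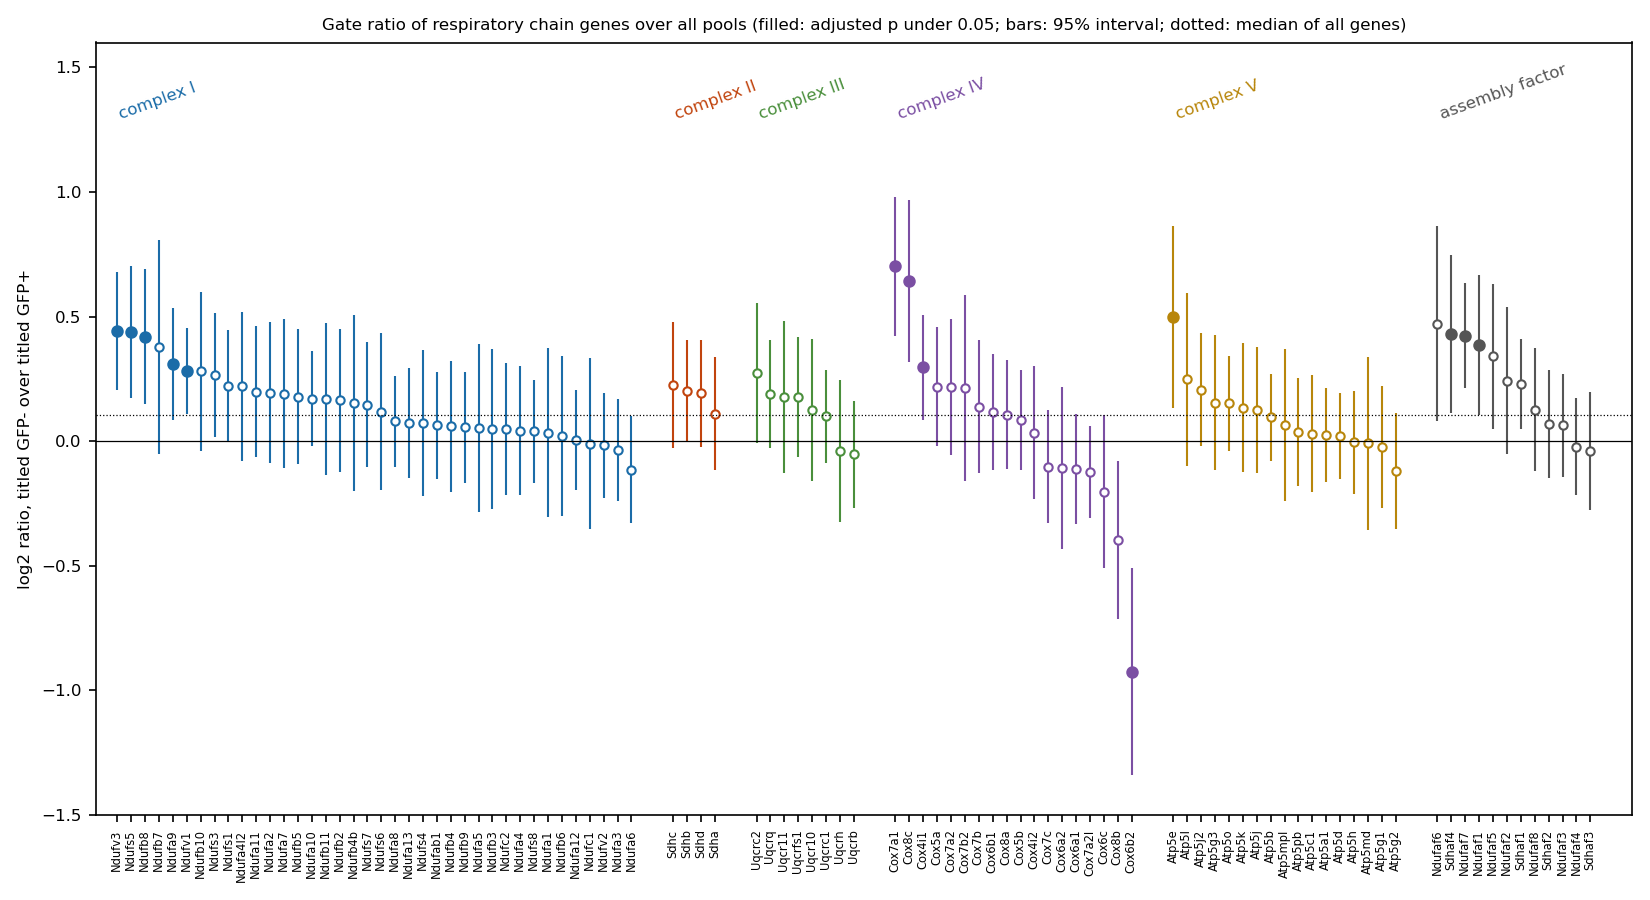
Gate ratio (log2, titled GFP- over titled GFP+) for each of the 97 genes, grouped by complex and ordered by ratio, with 95% intervals from 8 pools; filled points passed an adjusted p of 0.05 and the dotted line is the median of all genes. Most points lie between -0.2 and 0.5, with Cox7a1 at 0.70 and Cox6b2 at -0.93 at the ends.

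Complex I subunits had a median gate ratio of 0.13 (38 genes, 5 higher, 0 lower, 34 positive). The largest ratio belonged to Ndufv3, a small accessory subunit of the NADH-oxidising module. It measured 9.02, 9.15, 8.68 and 8.79 in odor titled GFP- libraries and 8.17, 8.55, 8.50 and 8.26 in odor titled GFP+ libraries. In vehicle pools it measured 8.55, 8.77, 9.20 and 8.78 in titled GFP- and 8.49, 8.43, 8.45 and 8.55 in titled GFP+. Titled GFP- was higher within all 8 pools, and across pools the gates overlapped only at the vehicle 1 titled GFP- library. The ratio was 0.44 (SE 0.11, limma adjusted p = 0.0111).

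Ndufs5, an accessory subunit of the proton-pumping side of complex I, gave 8.61, 8.64, 8.41 and 8.53 in odor titled GFP- and 7.98, 8.36, 8.29 and 8.15 in odor titled GFP+. In vehicle pools it gave 8.20, 8.74, 8.10 and 8.47 in titled GFP- and 8.01, 7.71, 7.98 and 7.71 in titled GFP+. It was higher in titled GFP- in 8 of 8 pools, with some overlap across pools (ratio 0.44, SE 0.12, limma adjusted p = 0.0203). Ndufb8, an accessory subunit of the membrane arm, was also higher in 8 of 8 pools, at 6.30 to 6.88 in titled GFP- and 5.81 to 6.38 in titled GFP+ (ratio 0.42, limma adjusted p = 0.0277). The call of Ndufs5 was lost without odor pool 1, vehicle pool 2 or vehicle pool 4 (adjusted p up to 0.055), and that of Ndufb8 without odor pool 1, odor pool 4 or vehicle pool 2 (up to 0.0706). The remaining complex I calls, singled out after their values were seen, were Ndufa9 (0.31), which stabilises the junction of the complex's arms, and Ndufv1 (0.28), the subunit that binds NADH. Ndufa9 lost its call when odor pools 1, 2 or 3, or vehicle pools 1, 3 or 4, were omitted singly (adjusted p up to 0.107), and Ndufv1 without odor pool 1 or vehicle pool 3 (up to 0.0554). Ndufv1 had the narrowest spread of these, 13.82 to 14.07 in titled GFP- and 13.42 to 13.69 in titled GFP+, so its gates did not overlap. How many of all genes had gates that did not overlap was not counted. At the other end Ndufa6 had a ratio of -0.12, which did not pass. Ndufa4, an oxidase-associated subunit that keeps a complex I name, had a ratio of 0.04 (95% interval -0.22 to 0.30), and its hypoxia-inducible paralog Ndufa4l2 was below the guide in every library.

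None of the 4 subunits of complex II passed the test over all pools. All 4 did with each library centred, where 90 of 97 members and 14336 of 19505 genes were called higher. With an intensity trend Sdhb passed (limma adjusted p = 0.0432). In odor pools alone Sdhd was called higher (0.46, limma adjusted p = 0.0399). There, 3 of the 4 had an unadjusted limma p under 0.05, against 30.8% of all genes. Sdha, the flavoprotein that oxidises succinate, averaged 10.11 ± 0.22 in titled GFP- and 10.00 ± 0.14 in titled GFP+ (SD, n = 8 each), a ratio of 0.11 with a 95% interval of -0.12 to 0.34. The iron-sulfur subunit Sdhb averaged 13.22 ± 0.15 in titled GFP- and 13.01 ± 0.19 in titled GFP+ (ratio 0.20, interval -0.0036 to 0.41). The membrane anchors gave ratios of 0.23 for Sdhc (interval -0.03 to 0.48) and 0.19 for Sdhd (-0.02 to 0.41). These intervals hold the all-gene median of 0.10.

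Complex III had 8 genes, none of which passed. Their ratios ran from -0.05 for Uqcrb, a small ubiquinone-binding subunit, to 0.27 for Uqcrc2, a core subunit that faces the matrix (95% interval -0.01 to 0.56). At an unadjusted p under 0.05 the limma counts were 0 of 8 in complex III and 0 of 4 in complex II, against 39.9% of all genes.

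Complex IV held the extremes at either end, and they were isoforms. Its median was 0.09, with 3 of 18 genes higher and 1 lower. Cox7a1 is the isoform of subunit VIIa known from heart and skeletal muscle. It measured 6.96, 7.30, 6.78 and 7.06 in odor titled GFP- libraries and 6.55, 6.18, 6.85 and 6.45 in odor titled GFP+ libraries. The vehicle pools gave 7.27, 7.52, 7.37 and 6.79 in titled GFP- and 6.12, 6.55, 6.61 and 6.12 in titled GFP+. Titled GFP- was higher in 7 of 8 pools, the exception being odor pool 3, and the gates overlapped only through that pool's titled GFP+ library. The ratio was 0.70 (SE 0.13, limma adjusted p = 0.00192).

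The common isoform Cox7a2 averaged 9.45 ± 0.29 in titled GFP- and 9.23 ± 0.31 in titled GFP+ (SD, n = 8 each), a ratio of 0.22 that did not pass (adjusted p = 0.214). Within pools the ratio of Cox7a1 exceeded that of Cox7a2 by 0.48 ± 0.54 (SD, n = 8) and was the larger in 7 of 8. Cox7a2l, a relative that helps complexes III and IV associate, had a ratio of -0.12 (interval -0.31 to 0.06), and 0.23 with each library centred.

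Cox8c, a subunit VIII isoform best known from testis, was 5.06, 5.48, 5.06 and 5.06 in odor titled GFP- and 4.38, 5.15, 4.38 and 4.59 in odor titled GFP+. In vehicle pools it was 5.10, 5.75, 4.77 and 5.47 in titled GFP- and 4.85, 4.57, 4.62 and 4.07 in titled GFP+. It was higher in titled GFP- in 8 of 8 pools (ratio 0.64, SE 0.15, limma adjusted p = 0.00815), although the guide to background is also higher in titled GFP-, at a mean of 4.85 against 4.45, and Cox8c lies close to it. The common isoform Cox8a averaged 15.19 ± 0.30 in titled GFP- and 15.09 ± 0.19 in titled GFP+, a ratio of 0.11 (interval -0.11 to 0.32). Cox8b, the muscle isoform, was below the guide throughout.

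Cox4i1, the common isoform of the largest nuclear-encoded subunit, averaged 12.49 ± 0.27 in titled GFP- and 12.20 ± 0.15 in titled GFP+ (SD, n = 8 each). It was higher in titled GFP- in 7 of 8 pools (ratio 0.30, limma adjusted p = 0.0419), a call lost in 9 of 14 alternatives, among them the omission of any 1 pool other than vehicle pool 1 (adjusted p up to 0.1). Its oxygen-regulated isoform Cox4i2 was below the guide in all libraries. The lone member called lower was Cox6b2, a testis isoform of subunit VIb, with a ratio of -0.93 (limma adjusted p = 0.00405). Its values, 2.63 to 4.25 in titled GFP- and 3.87 to 4.46 in titled GFP+, were below the guide in all 16 libraries, so the ratio says nothing firm about Cox6b2 RNA. The common Cox6b1 had 0.12 (interval -0.11 to 0.35). Cox6a1, the common subunit VIa, had -0.11, which became 0.24 with each library centred, and its muscle isoform Cox6a2 had -0.11 (interval -0.43 to 0.22). Cox7b had 0.14 and its dim testis isoform Cox7b2 had 0.21, neither past the test.

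**Figure D2:**
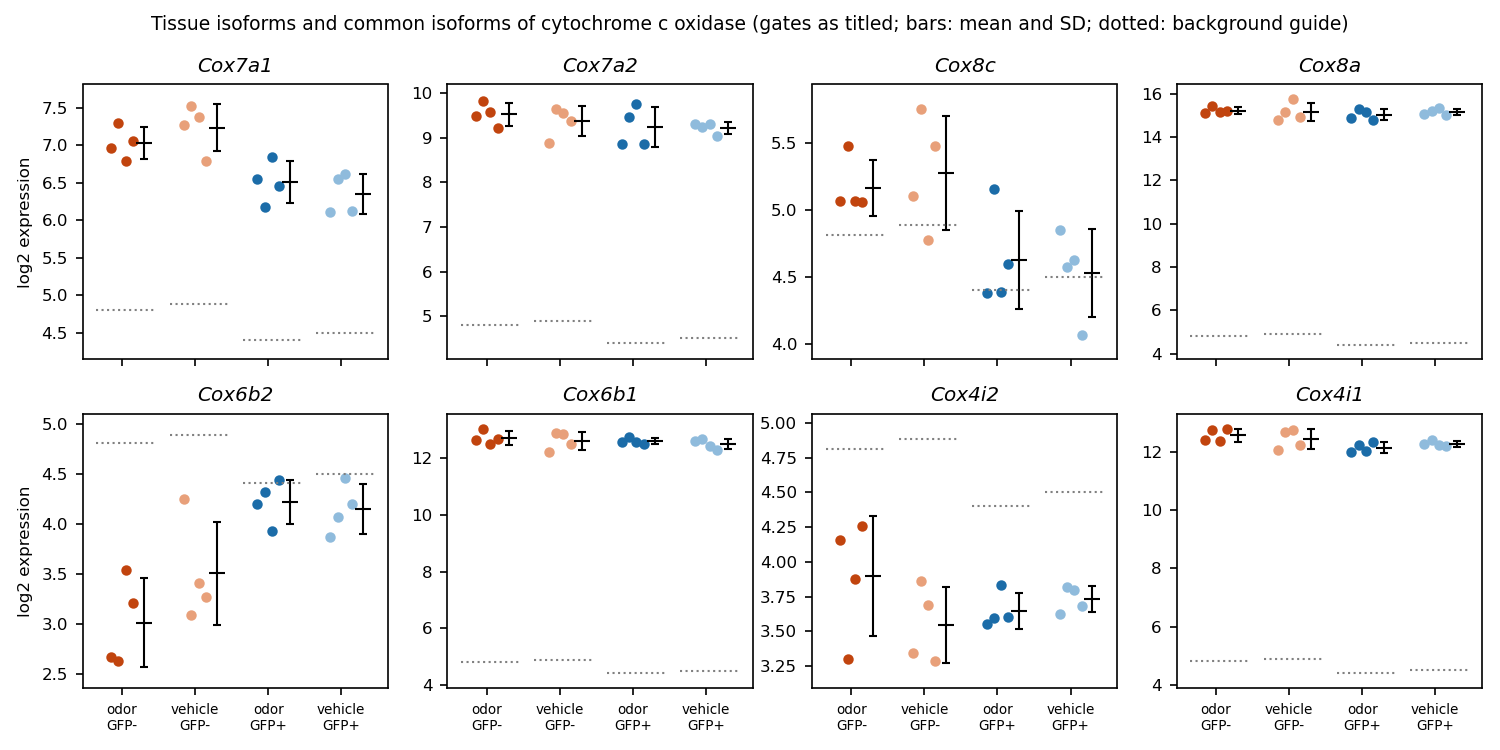
Log2 expression of 4 tissue isoforms of cytochrome c oxidase and their common counterparts in the 16 libraries (points), with group mean and SD (black) and the mean guide to background of each group (dotted); scales differ between panels. Cox7a1 is higher in titled GFP- and clear of the guide, Cox8c lies near it, and Cox6b2 and Cox4i2 lie below it.

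Complex V had a median ratio of 0.06 (17 genes, 1 higher, 0 lower). The gene called was Atp5e, the epsilon subunit in the rotating stalk of the ATP synthase. It measured 6.43, 7.05, 6.29 and 6.93 in odor titled GFP- and 5.87, 5.90, 5.60 and 6.00 in odor titled GFP+. In vehicle pools it measured 5.53, 6.34, 6.59 and 6.10 in titled GFP- and 6.25, 6.28, 6.33 and 5.06 in titled GFP+. The gates did not overlap among odor libraries and overlapped among vehicle libraries, where the vehicle 4 titled GFP+ library lay apart. The ratio over all pools was 0.50 (SE 0.16, limma adjusted p = 0.0468) and did not pass when any 1 pool other than vehicle pool 1 was omitted (adjusted p up to 0.113). The catalytic subunits were level, with 0.02 for Atp5a1 and 0.10 for Atp5b, named for their role. The 3 genes for the membrane ring subunit c had ratios of -0.02 for Atp5g1 (0.33 with each library centred), -0.12 for Atp5g2 and 0.16 for Atp5g3, none past the test.

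Assembly factors, which help build complexes I and II but are not part of them, had a median ratio of 0.24, with 3 of 12 higher and 10 of 12 positive. Ndufaf7, a methyltransferase that modifies a complex I core subunit, measured 10.32, 10.39, 10.55 and 10.48 in odor titled GFP- and 9.77, 10.09, 10.21 and 9.94 in odor titled GFP+. It measured 10.59, 10.52, 10.87 and 10.44 in vehicle titled GFP- and 10.38, 10.31, 10.05 and 10.03 in vehicle titled GFP+. Titled GFP- was higher in 8 of 8 pools, with a slight overlap across pools (ratio 0.42, SE 0.09, limma adjusted p = 0.00713). Ndufaf1, an early factor for the complex I membrane arm, averaged 7.79 ± 0.25 in titled GFP- and 7.40 ± 0.35 in titled GFP+ (ratio 0.39, limma adjusted p = 0.0451), and lost its call when odor pools 1, 3 or 4, or vehicle pools 1, 2 or 4, were omitted singly (adjusted p up to 0.11). Sdhaf4, which aids complex II assembly, was called at 0.43 (adjusted p = 0.048) but lay below the guide in every library and lost its call without any 1 pool other than vehicle pool 1 (up to 0.117).

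Other mitochondrial gene lists had ratios of the same order as the chain, whereas some genes of glycolysis and oxidant defence were far lower in titled GFP-. The counts are to be read beside 14.4% of all genes higher and 13.2% lower, and the medians beside 0.10. Of 30 measured genes for complex III and IV assembly, cytochrome c and electron carriers, 5 were higher and 0 lower in titled GFP- (median 0.17), led by the complex III assembly factors Uqcc1 (0.43) and Lyrm7 (0.39). The tricarboxylic acid cycle and pyruvate dehydrogenase had 3 of 19 higher and 1 lower (median 0.15). Fumarate hydratase Fh1 (0.49) and the pyruvate dehydrogenase subunit Dlat (0.32) were higher, and the NADP-dependent Idh2 was lower (-0.58), a call that was lost with each library centred (adjusted p = 0.126) or quantile normalized (0.0911). In import, carriers and mitochondrial shape, 1 of 21 was higher, the translocase subunit Timm50 (0.41), and the median was 0.01. The calls of Lyrm7, Dlat and Timm50 were lost when certain single pools were omitted (adjusted p up to 0.0739, 0.0786 and 0.125), and those of Uqcc1 and Fh1 were not. None of the 13 mitochondrially encoded subunits had a probe set named for it in the annotation used here, so the nuclear genes stand alone.

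Among 16 regulators of mitochondrial biogenesis, 3 were higher and 0 lower, with a median of 0.02. Ppargc1a, the PGC-1alpha coactivator, averaged 14.15 in titled GFP- and 13.56 in titled GFP+, a ratio of 0.59 (limma adjusted p = 0.00044). Polrmt, the mitochondrial RNA polymerase, had a ratio of 0.51. The list of 15 uncoupling and oxidant defence genes had 2 higher and 2 lower, namely Slc25a14 (0.45) and the uncoupling protein Ucp1 (0.45, below the guide in both gates) against glutathione peroxidase Gpx1 (-3.12) and catalase Cat (-2.64). Glycolysis had 1 of 21 higher, Aldoa (0.26), and 8 lower, with a median of 0.01. The neuronal and leukocyte glucose transporter Slc2a3 averaged 4.05 in titled GFP-, below the guide in 8 of 8 libraries, and 7.68 in titled GFP+. Its difference is thus only a bound, at least 2.84 lower on the log2 scale when titled GFP- values are set no lower than the guide. The calls of Aldoa, Slc25a14 and Ucp1 were lost when certain single pools were omitted (adjusted p up to 0.0828, 0.105 and 0.12). Lactate dehydrogenase Ldha averaged 6.95 in titled GFP- and 9.98 in titled GFP+, a ratio of -3.03. These falls run the same way as the myeloid markers given above, which were at least 2.23 lower on the same bounded scale in all 8 cases (4 of the 8 averaged below the guide in titled GFP-). Their part in these falls was not tested.

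**Figure D3:**
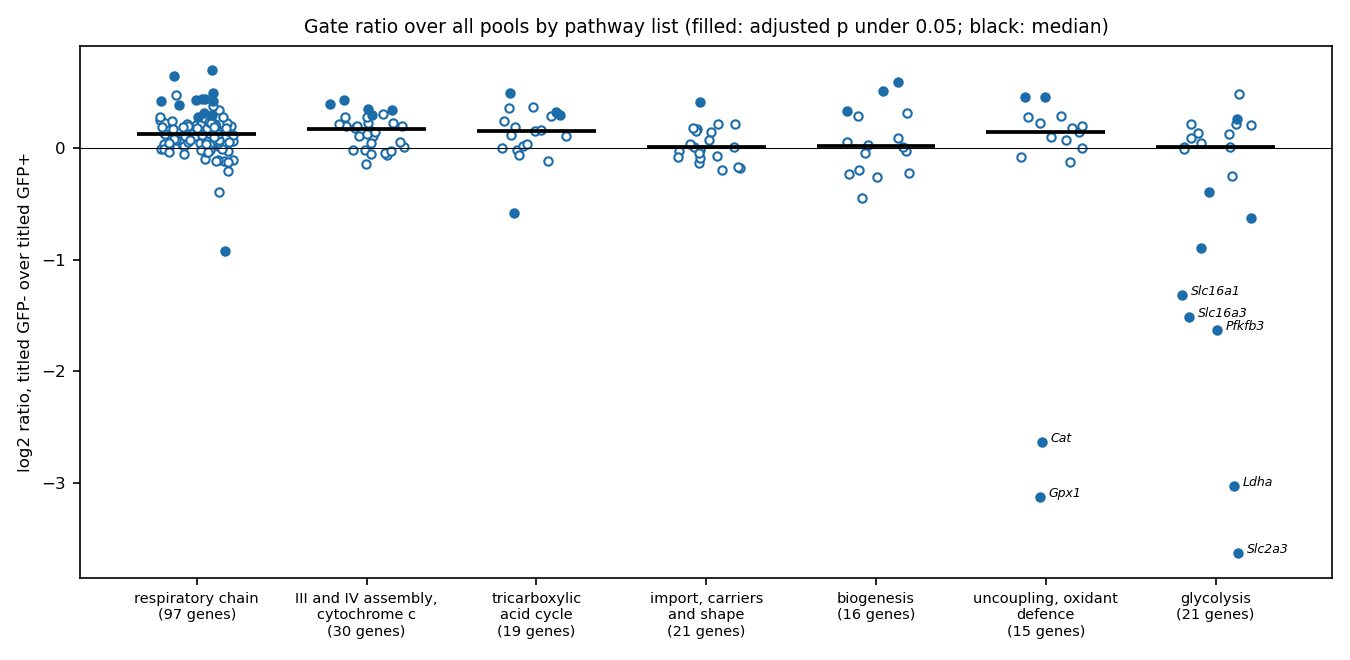
Gate ratio (log2, titled GFP- over titled GFP+) over all pools for the respiratory chain and 6 related gene lists (points: genes; filled: adjusted p under 0.05; black: median). The medians lie between 0.01 and 0.17, and the far lower points are glycolysis and oxidant defence genes such as Ldha at -3.03 and Gpx1 at -3.12; the Slc2a3 point is below the background guide in titled GFP-, so its plotted ratio is not exact.

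Taken by treatment, fewer members were called. In odor pools 8 members were higher and 1 lower, against 7.82% and 10.2% of all genes, and the median ratio was 0.21. At an unadjusted p under 0.05 there were 24 of 97 members and 30.8% of all genes. The largest of these were Atp5e (0.83), Ndufb10 (0.75) and Ndufaf1 (0.65), and Cox6b2 was again the gene called lower. The count of 8 was 0, 1, 3 and 3 when odor pools 1 to 4 were omitted in turn, and 5 without vehicle pool 4. Of 19505 genes, 1526 were higher in odor pools in the main run. That number was 1105, 935, 941 and 1162 without odor pools 1 to 4 in turn, and 1422 without vehicle pool 4. In vehicle pools 2 members were higher and 1 lower, against 6.23% and 9.95% of all genes, and the median was 0.02. This median changed sign with single pools: it was 0.13 without vehicle pool 1, -0.03 without vehicle pool 2, -0.06 without vehicle pool 3 and 0.03 without vehicle pool 4. The unadjusted counts there were 10 of 97 members and 28.6% of all genes. The higher ones were Cox7a1 (0.89) and Cox8c (0.75), and the lower one was Cox8b (-0.69), which is below the guide. The count of 2 was 1 without vehicle pool 2 or vehicle pool 4, where 777 and 866 of all genes were higher, against 1216 in the main run. With each library centred, 80 members were higher and 1 lower in odor pools, and 45 were higher and 0 lower in vehicle pools. Of 19505 genes, 10624 were then higher and 1550 lower in odor pools, and 10501 higher and 1522 lower in vehicle pools.

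The ratios of the members shifted together from pool to pool. The median gate ratio of the 97 genes was 0.17, 0.23, 0.06 and 0.36 in odor pools 1 to 4, and -0.28, 0.18, 0.30 and -0.06 in vehicle pools 1 to 4. The number of members with a positive ratio was 67, 79, 54 and 90 in the odor pools and 18, 68, 88 and 37 in the vehicle pools. Over all genes the pool medians stayed between 0.05 and 0.09. The spread of ratios between members within a pool was narrow, with an SD of 0.32 to 0.37 against 0.90 to 1.05 over all genes. Vehicle pool 1 was the lowest pool for complexes I to V and for the assembly factors. Its titled GFP- library lay 0.29 below its group mean at the median member, with 11 of 97 above the mean, while vehicle titled GFP- libraries 2, 3 and 4 lay at 0.14, 0.25 and -0.14. In the same 4 libraries the 60 ribosomal protein genes, a list chosen after these values were seen, lay at -0.28, 0.18, 0.30 and -0.19 from their group means. The deviation of all genes stayed between -0.02 and 0.01 there. The median level of the tested genes was 5.94, 5.98, 5.94 and 5.97 in these libraries. The median over all probe sets was 5.594, 5.412, 5.411 and 5.588, so it was higher in libraries 1 and 4, where the members lay low. In odor titled GFP- libraries 1 to 4 that median was 5.404, 5.398, 5.441 and 5.464. Whether this difference between arrays bears on the members was not tested. In odor titled GFP- libraries 1 to 4 the median member lay at -0.12, 0.15, -0.08 and 0.04, and the ribosomal genes at -0.03, 0.05, -0.16 and 0.14. The signs were opposite in vehicle titled GFP+ library 1 (members 0.09, ribosomal -0.06) and odor titled GFP+ library 4 (members -0.08, ribosomal 0.01). Unlike that of the members, the median ribosomal gate ratio was negative in every pool, from -0.83 to -0.25. No cause of the shared movement of the members was tested.

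**Figure D4:**
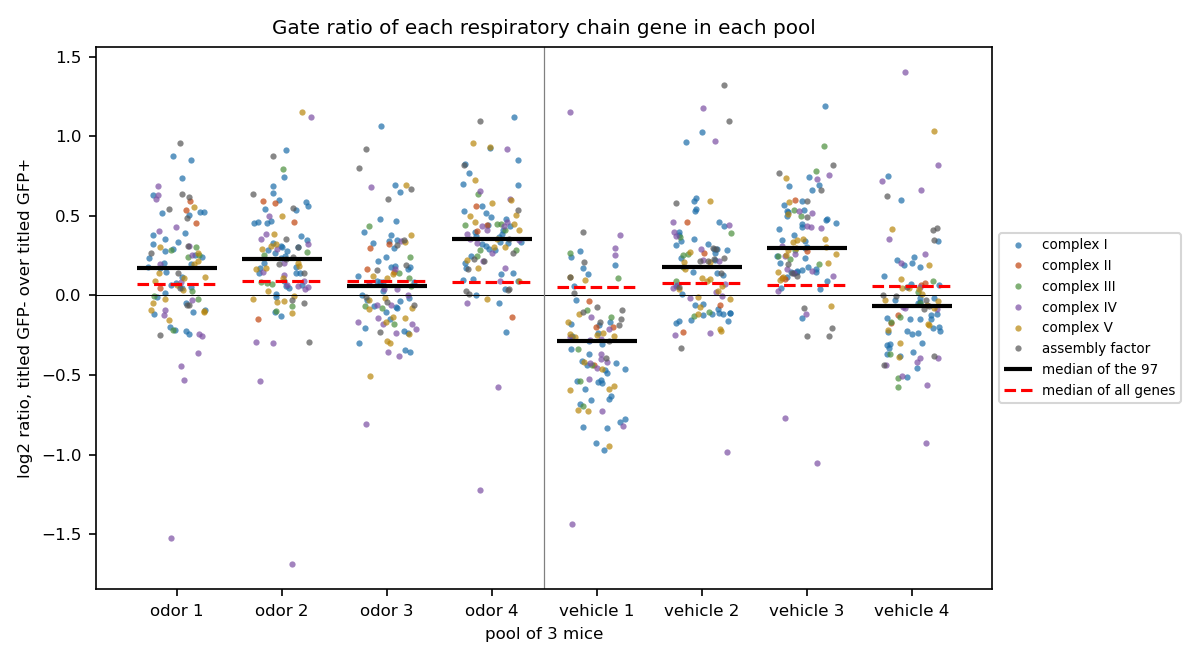
Gate ratio (log2, titled GFP- over titled GFP+) of each respiratory chain gene in each of the 8 pools, coloured by complex, with the median of the 97 genes (black) and of all genes (red, dashed). The member median runs from -0.28 in vehicle pool 1 to 0.36 in odor pool 4, while the all-gene median stays between 0.05 and 0.09.

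The odor effect on the gate ratio, the ratio in odor pools minus that in vehicle pools, asked whether bourgeonal changed the chain in the cells that the reporter separates. No member passed the test: the smallest adjusted p was 0.823, and 0 of 19505 genes (0%) passed. At an unadjusted p under 0.05 limma counted 4 of 97 members and 5.69% of all genes. The difference was positive for 82 of 97 members with a median of 0.19, beside 0.02 for all genes. This shift rested largely on vehicle pool 1, without which the median was 0.05 and 66 members were positive. The pool medians averaged 0.20 ± 0.12 with odor and 0.03 ± 0.26 with vehicle (SD, n = 4 each), and their ranges overlapped.

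By complex, the median odor effect on the ratio was 0.22 in complex I, 0.34 in complex II, 0.10 in complex III, 0.14 in complex IV, 0.17 in complex V and 0.17 in the assembly factors. Complex II had pool medians of 0.49, 0.52, 0.23 and 0.42 with odor and -0.20, 0.11, 0.20 and -0.03 with vehicle, which did not overlap, a complex singled out after these values were seen. Its subunits differed among themselves, at 0.54 for Sdhd (95% interval 0.11 to 0.97, adjusted p = 0.823), 0.45 for Sdha (-0.01 to 0.90), 0.23 for Sdhb (-0.18 to 0.64) and -0.02 for Sdhc (-0.52 to 0.49). Sdhd, whose promoter window is printed above, measured 11.38, 11.74, 11.09 and 11.44 in odor titled GFP- and 11.24, 11.40, 11.35 and 11.14 in vehicle titled GFP-. It measured 10.85, 11.15, 10.94 and 10.88 in odor titled GFP+ and 11.67, 11.46, 11.24 and 11.07 in vehicle titled GFP+. The treatments overlapped in either gate.

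Ndufb10, a membrane-arm subunit of complex I, had the smallest p of the chain in this comparison. It measured 6.61, 7.10, 6.93 and 6.99 in odor titled GFP- and 6.00, 6.67, 6.98 and 6.12 in vehicle titled GFP-. It measured 6.09, 6.41, 6.28 and 5.87 in odor titled GFP+ and 6.83, 6.83, 6.39 and 6.48 in vehicle titled GFP+. In titled GFP- 2 vehicle libraries lay below all odor libraries and the other 2 among them, and in titled GFP+ the groups overlapped by 1 odor library above the lowest vehicle library. The odor effect on its ratio was 0.93 (interval 0.29 to 1.57, limma adjusted p = 0.823). Ndufa8, another complex I accessory subunit, followed at 0.38 (0.01 to 0.74, adjusted p = 0.859).

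**Figure D5:**
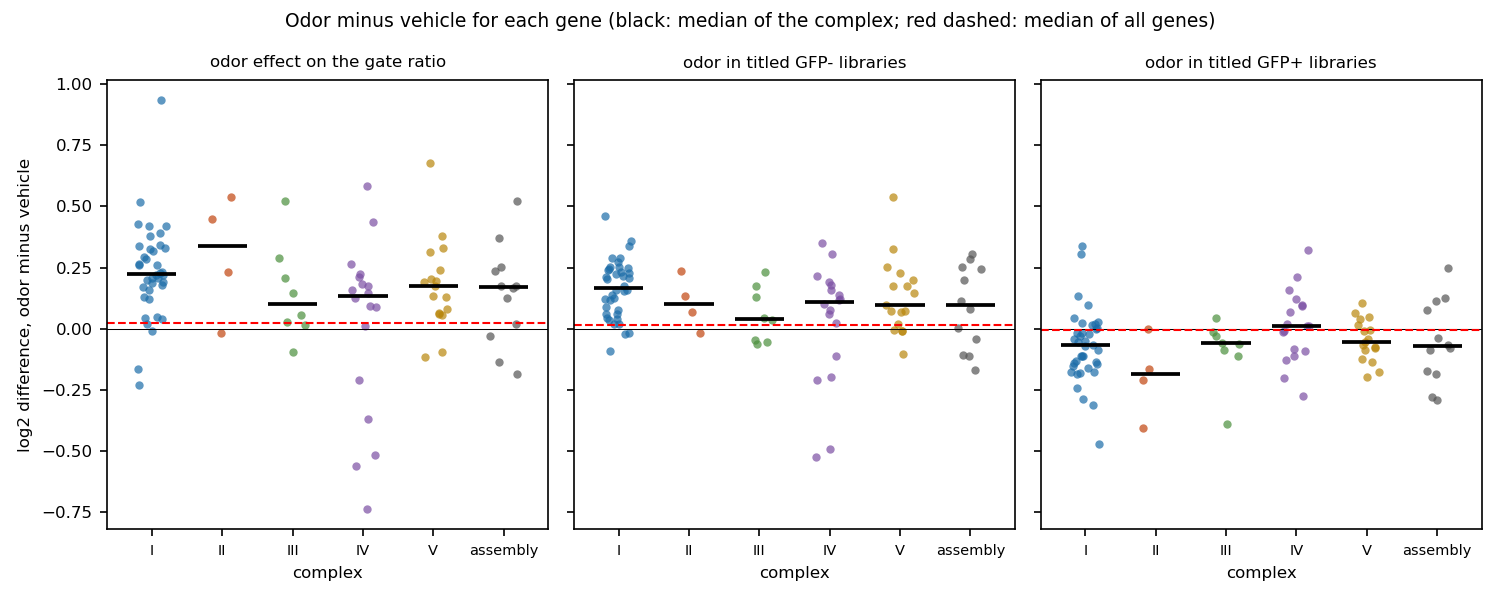
Odor minus vehicle on the log2 scale for each gene by complex, as the effect on the gate ratio (left), in titled GFP- libraries (middle) and in titled GFP+ libraries (right); black lines are complex medians and the red dashed line the median of all genes. The member medians over all complexes are 0.19, 0.12 and -0.06 and no member passed the test.

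Within titled GFP- libraries, odor minus vehicle had a median of 0.12 over the members and 0.01 over all genes, and 0 of 97 members and 0 of 19505 genes (0%) passed. At an unadjusted p under 0.05 limma counted 1 of 97 members and 4.46% of all genes. Without vehicle pool 1 the member median was 0.02. The smallest p belonged to Cox7b2 (-0.53), which is below the guide in most libraries, followed by Atp5e (0.54) and Ndufb10 (0.46), all with an adjusted p of 0.996. Within titled GFP+ libraries the median was -0.06 over the members, -0.02 without vehicle pool 1, and -0.01 over all genes. Again 0 of 97 members passed, against 0.0103% of all genes, and the unadjusted counts were 4 of 97 members and 4.24% of all genes. The smallest p belonged to Ndufb10 (-0.47), Sdhd (-0.41) and Uqcr10 (-0.39), a small complex III subunit, all with an adjusted p of 0.999. The 95% interval of the odor difference lay within 1 of 0 for 95 members in titled GFP- and 97 in titled GFP+. The 3 odor comparisons share libraries, so their values are not independent of each other.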

How the data were processed

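The values used are the deposited log2 expression values per probe set. The authors produced them in Affymetrix Expression Console, as the submitters' processing notes record, and its version, summarisation method and genome build are not stated in the sources used here. Spike-in values showed the base of the logarithm. From 28846 probe sets, 94 controls for spike-ins and background were removed, then 6546 whose ID holds neg or pos. A gene was named for 19572 of the rest and none for 2634. Keeping the brightest probe set of a gene gave 19505 genes. An array has no depth in reads; the precision is limited by how many arrays there are.

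Groups follow the titles. limma 3.58.1 (R 4.3.3, lmFit and eBayes, two-sided, Benjamini-Hochberg over 19505 genes, threshold 0.05) was fitted to the 16 libraries with a term for the pool for gate ratios and their odor effect, and 8 libraries without a block for odor within a gate. The gate ratio fit was also run on simulated data. Their noise was drawn independently for each gene, so that run does not speak to genes that move together. Both gates of a pool were taken to come from the same mice, from the count of mice; their deviations correlated at 0.135 to 0.287 in odor pools and 0.098 to 0.201 in vehicle pools. What a number shared by odor and vehicle stands for is not in the labels, and p-values measure the spread between pools. Alternatives covered centring, quantile normalization, dim probe sets, an intensity trend, averaged probe sets, other blocks and omission of each pool.

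The members, the lists and the rule for named genes were chosen with earlier results of these data known. The rule named, per complex, up to 3 rises and 3 falls past the threshold, isoform families, all Sdh subunits, the 3 smallest p of each odor comparison, and up to 2 genes each way per list.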

Additional observations from a re-analysis of the deposited data

Results flagged for a closer look

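Among 144 sets of 4 libraries (36 quantities: the levels of the named members and their median, in 4 groups), 5 held a library far from the other 3 by Dixon's criterion; chance marks about 1 set in 20. Cox8c was 5.48 in odor titled GFP- library 2, against 5.06 in the other libraries of that group. Atp5e was 5.06 in vehicle titled GFP+ library 4, against 6.25 to 6.33 in the others. Cox4i2, below the background guide, was 3.83 in odor titled GFP+ library 3, against 3.55 to 3.60. Sdhc was 10.93 in odor titled GFP+ library 2, against 10.45 to 10.52, and 10.73 in vehicle titled GFP+ library 1, against 10.56 to 10.57.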

How the results depend on the processing

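Centring each library on its median moved the gate ratios most. Over all pools it gave 90 members higher and a median of 0.48 (all genes 0.46). In odor pools it gave 80 higher and 0.56 (all genes 0.46), and in vehicle pools 45 higher, 0 lower and 0.37 (all genes 0.44). Of 19505 genes, 14336 were then higher over all pools, 10624 in odor pools and 10501 in vehicle pools. Centring raised the number of members with a positive ratio over all pools from 78 to 95. Among the named genes that turned sign, Cox6a1 (0.24), Cox7a2l (0.23) and Atp5g1 (0.33) also passed the test. Quantile normalization gave 2 lower over all pools and 5 higher in vehicle pools; over all pools it gave 18 higher, 10 of them shared with the 12. Leaving out dim probe sets removed Cox6b2 and Cox8b and so gave 0 lower in all 3 gate comparisons, with 4 higher in vehicle pools. An intensity trend gave 13 higher in odor pools and 4 in vehicle pools. Omitting 1 pool at a time gave 4 to 13 higher and 1 to 2 lower over all pools. In odor pools it gave 0 to 9 higher and 0 to 1 lower, and in vehicle pools 1 to 3 higher and 0 to 1 lower. Of 19505 genes, 2093 to 2434 were higher over all pools under these omissions. The gene counts were 935 to 1499 in odor pools and 777 to 1202 in vehicle pools. With no replicate block (gates of a pool unpaired) the counts were 9 higher and 2 lower over all pools. In the 3 odor comparisons 0 members passed under every alternative run; the replicate block on shared numbers left their medians at 0.19, 0.12 and -0.06. Same-numbered odor and vehicle libraries correlated at 0.088 to 0.161 in titled GFP- and 0.157 to 0.210 in titled GFP+. Calls of Ndufv3, Cox7a1, Cox8c and Ndufaf7 held in all 14 alternatives, and that of Cox6b2 in all that tested it. No member was a pseudogene, so that alternative left out assembly factors alone (median 0.12 over all pools). The causes of these shifts were not tested, and signal near background limits the dim isoforms.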
